A study of Mus musculus with 8 samples.

Results

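The interferon regulatory factors (IRFs) and the signal transducers and activators of transcription (STATs) are 2 families of transcription factors that carry signals from innate immune receptors and cytokine receptors to the nucleus. The 9 members described here are Irf1, Irf2, Irf3, Irf4, Irf5, Irf7, Irf9, Stat2 and Stat3, found by gene symbol among the 34745 genes of a messenger RNA count table, and each of the 9 had 1 row. Counts came from 8 libraries of mouse bone-marrow-derived macrophages, which are primary macrophages grown from marrow, here in macrophage colony-stimulating factor (M-CSF) at 20 ng/ml. The groups were KAT8-deficient cells treated for 6 h with 100 ng/ml R848, untreated KAT8-deficient cells, WT cells with the same R848 treatment and untreated WT cells, with 2 libraries in each. KAT8 is a histone acetyltransferase, and the deficient samples carry the title KAT8-cKO, a conditional knockout for which the sources used here give no Cre driver, strain background or animal age. R848 (resiquimod) is a small molecule that activates the endosomal RNA receptor TLR7. The sources do not state whether libraries of a group derive from different mice or cultures, so p-values measure the spread between these libraries, which may be technical.

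In a macrophage, the endosomal Toll-like receptor TLR7 signals through MyD88 to IRF5 and IRF7 as well as to NF-kB, and other sensors activate IRF3. Cytokine and interferon genes are transcribed as a result. Interferon that binds its receptor activates Janus kinases, and phosphorylated STAT2 acts with IRF9 in the complex ISGF3, which binds interferon-stimulated response elements (ISREs). IRF1 is itself an induced activator, IRF2 binds the same elements and often opposes it, IRF4 acts in dendritic cells and alternatively activated macrophages, and STAT3 carries interleukin 6 and interleukin 10 signals. Activity of most of these proteins is set by phosphorylation, which messenger RNA counts do not measure.

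All 9 genes had an entry among the RefSeq promoters of GRCm38.p6, 11 starts in all, and these were searched from 250 bases before to 50 bases after each start, on both strands. The motifs were the ISRE core (GAAA, any 2 bases, GAAA), the STAT-binding GAS motif TTCNNNGAA and the kB consensus of NF-kB. Over all 32851 promoters of that length, 3.44% held the ISRE core, 8.3% the GAS motif and 4.51% the kB consensus. Irf1 and Stat2, the 2 members with higher messenger RNA under R848 in WT cells, each held at least 1 of them, and their sequences upstream of the start are shown for that reason. Capitals mark the motifs, 5′ to 3′ on the plus strand, which is the strand of both genes.
Irf1, chr11:53769764-53770013: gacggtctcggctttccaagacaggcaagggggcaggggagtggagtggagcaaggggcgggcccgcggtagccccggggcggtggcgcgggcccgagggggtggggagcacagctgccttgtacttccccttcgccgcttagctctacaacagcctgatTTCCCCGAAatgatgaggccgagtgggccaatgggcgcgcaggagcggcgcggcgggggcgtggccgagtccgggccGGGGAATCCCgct
Stat2, chr10:128270248-128270497: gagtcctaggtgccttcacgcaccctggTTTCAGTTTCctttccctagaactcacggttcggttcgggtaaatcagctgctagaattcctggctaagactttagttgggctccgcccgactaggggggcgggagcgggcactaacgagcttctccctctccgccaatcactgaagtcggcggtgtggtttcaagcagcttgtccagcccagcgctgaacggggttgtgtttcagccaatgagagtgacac

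In Irf1 the GAS match began 90 bases before the start and the kB match began 13 bases before it, and these did not overlap. The second RefSeq start of Irf1 held none of the motifs. In Stat2 an ISRE core in reverse orientation began 222 bases before the start. Irf2 held an ISRE core, a GAS motif and a kB match, the widest set among the members, and its messenger RNA did not pass the test in any comparison below. The promoters of Irf3, Irf4, Irf5, Irf7, Irf9 and Stat3 held none of these letters in this window. A match is a description of sequence and says nothing of whether a factor was bound.

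Library totals lay between 18550977 and 21384532 counts, and 14040 genes passed the filter on low counts, the 9 members among them. Kat8 averaged 9.76 ± 1.41 CPM, the count scaled to the normalised size of its library, in untreated KAT8-deficient cells and 17.4 ± 0.641 in untreated WT cells (SD, n = 2 each), a log2 difference of -0.83 (edgeR adjusted p = 0.0113), and under R848 the difference was -0.74 (edgeR adjusted p = 0.00553). The untreated Kat8 call was lost without either WT untreated library or KAT8-deficient untreated replicate 1, and the R848 call without WT R848 replicate 1. Which part of the gene was deleted is not stated. All 8 macrophage markers had counts, summing to between 8550 and 9650 CPM over the KAT8-deficient libraries and between 14900 and 16400 over the WT libraries, and without Lyz2 these ranges were 3350 to 3730 and 3760 to 4240. The 8 stromal markers (collagen and fibroblast genes), all with counts, summed to 3640 to 3750 CPM in R848-treated and 4050 to 4220 in untreated KAT8-deficient libraries. In WT libraries they summed to 2450 to 2660 CPM with R848 and 2910 to 3410 without it. For R848 in WT cells 1 of the 8 was called higher and 3 lower, with a median log2 change of -0.4. The 8 neutrophil markers summed to at most 8.05 CPM with Ly6g at 0, the 8 dendritic cell markers to at most 11.3 CPM with Flt3 and Siglech at 0, and the 6 B and T cell markers to at most 1.27 CPM. In bulk RNA, fewer cells of a type and less RNA per cell cannot be told apart, and the part of the stromal and macrophage marker differences in any result below was not tested.

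**Figure D1:**
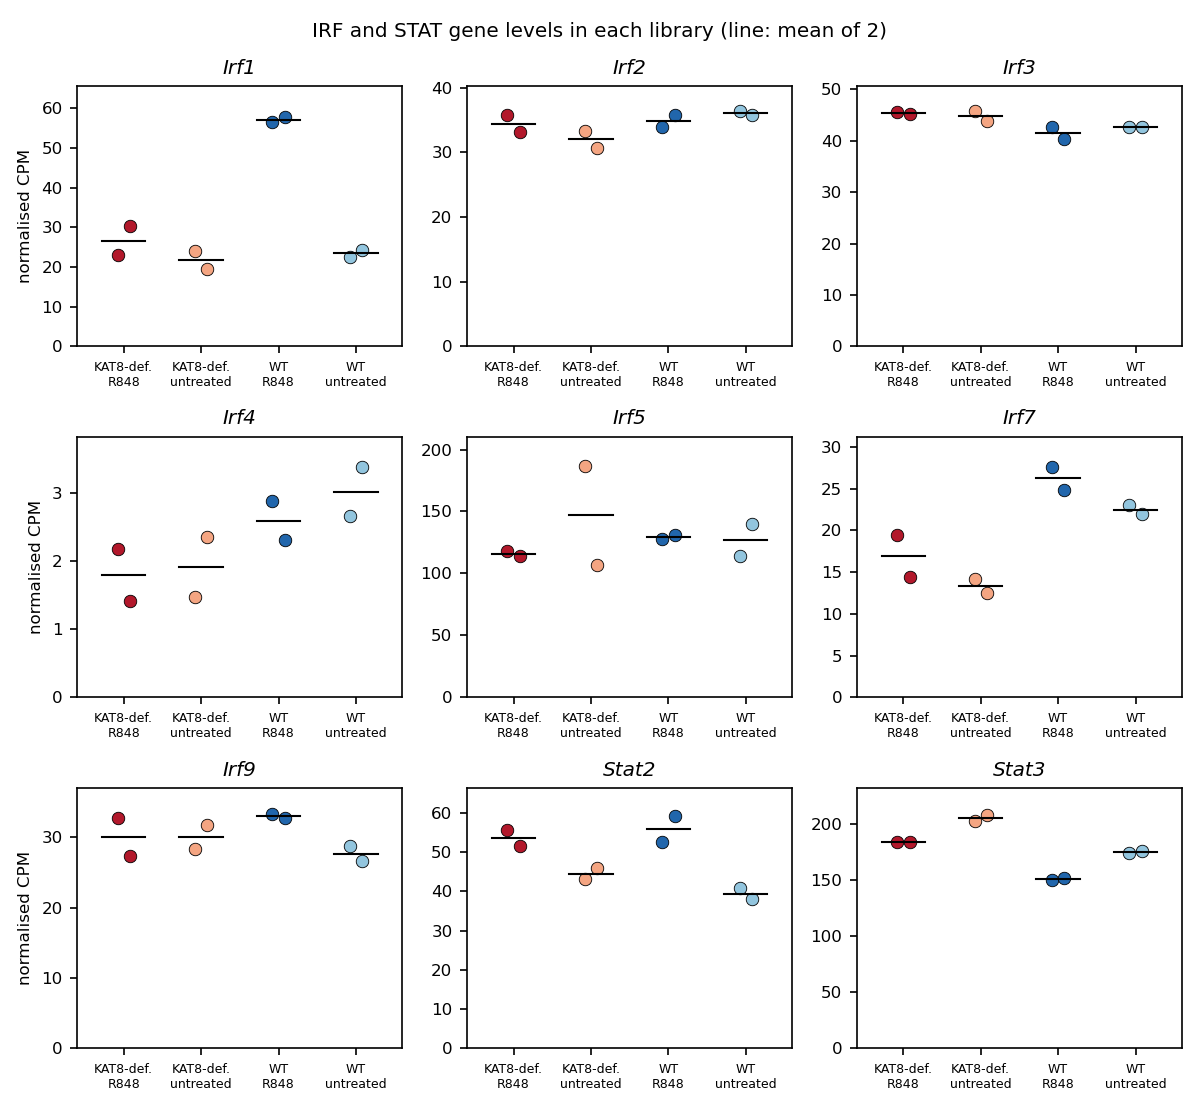
Normalised CPM of each of the 9 genes in each of the 8 libraries, 1 panel per gene, with each axis starting at 0; points are libraries and lines are means of 2. The WT R848 libraries of Irf1 stand at 56.5 and 57.7 CPM, above the other 6 libraries, and Irf7 is lower in each KAT8-deficient library than in each WT library.

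Levels between genes were compared per kilobase of exon, from the union of annotated exons (GENCODE M21, GRCm38). Irf5 stood highest in each group, at 40.0 ± 1.02 CPM per kb in R848-treated KAT8-deficient cells, 50.6 ± 19.3 in untreated KAT8-deficient cells, 44.5 ± 0.602 in R848-treated WT cells and 43.6 ± 6.28 in untreated WT cells (SD, n = 2 each). Stat3 followed in each group, between 15.8 and 21.6 CPM per kb, and then Irf3, between 12.1 and 13.2, except in R848-treated WT cells, where Irf1 stood between them at 14.4 ± 0.214 (SD, n = 2). Stat2 came next, between 6.63 and 9.43 CPM per kb, and Irf4 was last in each group, between 0.365 and 0.614. In untreated WT cells Irf7 at 5.96 ± 0.192 and Irf1 at 5.90 ± 0.290 CPM per kb (SD, n = 2 each) did not differ beyond their spread. In untreated KAT8-deficient cells the neighbours Irf9 (5.57 ± 0.437) and Irf1 (5.48 ± 0.802) did not differ beyond their spread either (SD, n = 2 each). Irf7 stood at 4.48 ± 0.942 CPM per kb in R848-treated and 3.53 ± 0.319 in untreated KAT8-deficient cells (SD, n = 2 each), below Irf2 by mean in both, whereas it was above Irf2 in both WT groups.

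**Figure D2:**
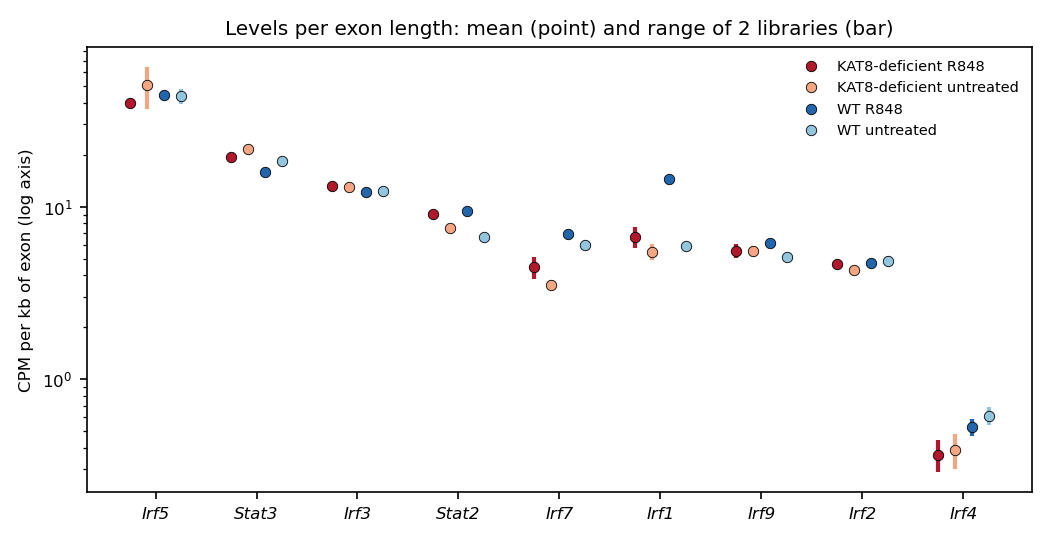
CPM per kilobase of exon on a log axis for the 9 genes, ordered by their level in untreated WT cells; points are means and bars the range of 2 libraries per group. Irf5 is highest in each group and Irf4 lowest, and Irf1 moves up to the level of Irf3 and Stat3 in R848-treated WT cells.

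The R848 response of KAT8-deficient cells was compared first with that of WT cells, each genotype against its own untreated libraries. In KAT8-deficient cells 0 of the 9 members passed the test (edgeR quasi-likelihood, Benjamini-Hochberg adjusted p under 0.05 over all genes tested), against 0.634% of all genes, and 3 members (Irf7, Stat2 and Stat3) had an unadjusted p under 0.05, as did 1944 genes overall. Among all genes 0.499% were called higher and 0.135% lower there. No member passed by DESeq2 or limma-voom in this comparison either. In WT cells 3 of the 9 passed, Irf1 and Stat2 higher and Stat3 lower, against 13.6% of all genes, 6.94% higher and 6.7% lower. With 2 libraries a side, libraries that do not overlap were common, in 46.8% of all genes for R848 in KAT8-deficient cells and in 56% in WT cells, so that only the tests are read as differences. The median log2 change of the 9 members was 0.02 in KAT8-deficient and 0.03 in WT cells, next to 0.002 and -0.002 over all tested genes.

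Irf1 (ENSMUSG00000018899, chromosome 11, 53770014 to 53778374, GRCm38), the inducible activator, had 22.9 and 30.2 CPM in R848-treated KAT8-deficient cells and 24.0 and 19.5 CPM in untreated KAT8-deficient cells. It had 56.5 and 57.7 CPM in R848-treated WT cells and 22.6 and 24.3 CPM in untreated WT cells. The treated and untreated libraries of KAT8-deficient cells overlapped, while those of WT cells lay far apart. The log2 change was 0.29 (SE 0.14, edgeR adjusted p = 0.414) in KAT8-deficient cells and 1.28 (SE 0.14, edgeR adjusted p = 0.000595), a 2.44-fold rise, in WT cells. The value in KAT8-deficient cells lay between 0.07 (without KAT8-deficient R848 replicate 2) and 0.47 (without KAT8-deficient R848 replicate 1) and was called in none of 16 alternatives. The WT rise was called in each of 16 alternatives, between 1.22 and 1.34. The difference of the 2 responses (the interaction) was -1 (SE 0.20, 95% interval -1.45 to -0.55), with edgeR adjusted p = 0.0828, so it did not pass. Over 15 alternatives that adjusted p ran from 0.00109 to 0.252, and it passed by DESeq2 (0.00109), with no filter (0.00998), with robust spread estimation (0.0473) and without KAT8-deficient R848 replicate 2 (-1.21, adjusted p = 0.0182). In all, 0 members passed the interaction test, next to 0.228% of all genes (0.057% higher and 0.171% lower), and Irf1 was the only member with an unadjusted p under 0.05, as had 1600 genes.

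Stat2 (ENSMUSG00000040033, chromosome 10, 128270559 to 128292849), the ISGF3 subunit with the transactivation domain, had 55.5 and 51.5 CPM in R848-treated and 43.0 and 45.9 CPM in untreated KAT8-deficient cells. It had 52.6 and 59.2 CPM in R848-treated and 40.7 and 37.9 CPM in untreated WT cells. Treated libraries stood above untreated ones in both genotypes. The log2 change was 0.27 (SE 0.085, edgeR adjusted p = 0.229) in KAT8-deficient cells and 0.51 (SE 0.086, edgeR adjusted p = 0.00551) in WT cells. The interaction was -0.24 (95% interval -0.52 to 0.03, edgeR adjusted p = 0.503), so a difference between genotypes was not shown. The WT call was lost without WT R848 replicate 2 (0.41, adjusted p = 0.0503), the highest adjusted p of 16 alternatives that began at 0.000696.

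Stat3 (ENSMUSG00000004040, chromosome 11, 100885098 to 100939540), the main effector of interleukins 6 and 10, had 184 CPM in both R848-treated and 203 and 208 CPM in untreated KAT8-deficient libraries. It had 150 and 152 CPM in R848-treated and 174 and 176 CPM in untreated WT libraries. Treated libraries lay below untreated ones in both genotypes. It fell by 0.22 on the log2 scale in WT cells (SE 0.054, edgeR adjusted p = 0.0312), and its log2 change in KAT8-deficient cells was -0.16 (SE 0.053, edgeR adjusted p = 0.25). The WT call held in 9 of 16 alternatives, with adjusted p from 0.0213 to 0.148, and 1 of the 9, without WT untreated replicate 1, passed at 0.049977. It was lost without WT untreated replicate 2 (adjusted p = 0.105), WT R848 replicate 1 (0.148) or 2 (0.109), or KAT8-deficient untreated replicate 2 (0.0549), as well as by DESeq2 (0.0638), with no filter (0.0516) and with only the 4 WT libraries (0.0803).

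Irf7, often called the master regulator of type I interferon genes and itself interferon-inducible, had 19.4 and 14.4 CPM in R848-treated and 14.2 and 12.5 CPM in untreated KAT8-deficient cells. It had 27.6 and 24.9 CPM in R848-treated and 23.0 and 22.0 CPM in untreated WT cells. Treated libraries were above untreated ones in each genotype, by 0.34 on the log2 scale (SE 0.15, edgeR adjusted p = 0.356) in KAT8-deficient and 0.22 (SE 0.14, edgeR adjusted p = 0.365) in WT cells, and neither passed. Without KAT8-deficient R848 replicate 1 the value in KAT8-deficient cells was 0.11, and without replicate 2 it was 0.54. Irf9, the DNA-binding subunit of ISGF3, had 32.7 and 27.3 CPM in R848-treated and 28.3 and 31.7 CPM in untreated KAT8-deficient cells, which overlapped. In WT cells Irf9 had 33.3 and 32.7 CPM with R848 and 28.7 and 26.6 CPM without, or 0.26 on the log2 scale (SE 0.11, edgeR adjusted p = 0.158).

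The other members did not pass under R848. Irf2 had log2 changes of 0.11 (SE 0.080) in KAT8-deficient and -0.05 (SE 0.080) in WT cells, and Irf3, the interferon activator that is present before stimulation, had 0.02 (SE 0.067) and -0.04 (SE 0.068). For Irf3 the 95% intervals were -0.13 to 0.17 in KAT8-deficient and -0.19 to 0.11 in WT cells, and larger changes lie outside these intervals. Irf5, which acts downstream of MyD88, had 118 and 114 CPM in R848-treated and 187 and 107 CPM in untreated KAT8-deficient cells, and 128 and 131 CPM in R848-treated and 114 and 140 CPM in untreated WT cells. The value of 187 CPM in KAT8-deficient untreated replicate 1 stood apart from the other 7 libraries. The Irf5 log2 change in KAT8-deficient cells was -0.34 (SE 0.21, edgeR adjusted p = 0.521), and without that library it was 0.11 (adjusted p = 0.86). Tnpo3, which shares 14.15% of the Irf5 exon bases on the opposite strand, had 83.9 and 85.7 CPM in the untreated KAT8-deficient libraries and did not stand apart there. Irf4 had between 28 and 62 counts per library, so that its intervals were wide (-0.83 to 0.65 in KAT8-deficient and -0.89 to 0.46 in WT cells, log2).

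**Figure D3:**
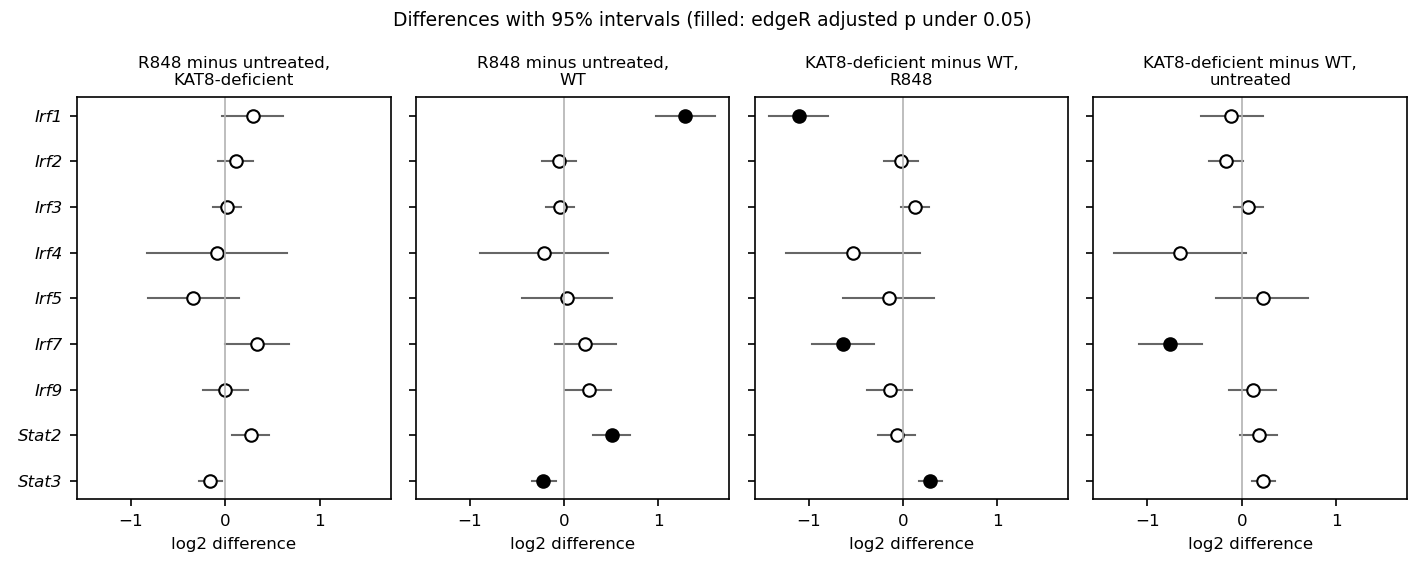
Log2 differences of the 9 genes (points) with approximate 95% intervals (lines) for R848 against untreated in KAT8-deficient and in WT cells, and for KAT8-deficient against WT cells with and without R848; filled points passed the edgeR test. Irf1 is far right of 0 for R848 in WT cells and far left of 0 for genotype under R848, and Irf7 is left of 0 for genotype in both states.

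The genotype comparisons asked what KAT8 deficiency changed with and without R848. They use the same libraries as the R848 responses, so that a high value in the WT R848 libraries enters both. Under R848, 3 of 9 members passed, with Irf1 and Irf7 lower and Stat3 higher in KAT8-deficient cells, against 13.6% of all genes (8.14% higher and 5.47% lower). In untreated cells Irf7 alone passed, lower in KAT8-deficient cells, against 4.27% of all genes (2.91% higher and 1.36% lower). Averaged over both states, Irf1 and Irf7 were lower and Stat3 higher in KAT8-deficient cells, 3 of 9 members against 18.6% of all genes (11% higher and 7.56% lower). Libraries of the 2 genotypes did not overlap in 59.4% of all genes under R848, in 50.4% without it and in 16% over both states.

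Irf7 was lower in each KAT8-deficient library (12.5 to 19.4 CPM) than in each WT library (22.0 to 27.6 CPM). The log2 difference was -0.63 (SE 0.14, edgeR adjusted p = 0.0211) under R848 and -0.76 (SE 0.15, edgeR adjusted p = 0.029) without it. Averaged over both states it was -0.70 (SE 0.10, edgeR adjusted p = 0.00256), a level 0.617 times that of WT cells, and this was called in each of 15 alternatives (adjusted p from 1.62e-06 to 0.0142). The interaction was 0.12 (95% interval -0.35 to 0.59), so a difference of its R848 response between genotypes was not shown. The R848 call was lost without WT R848 replicate 1 (adjusted p = 0.136) or 2 (0.058), without KAT8-deficient R848 replicate 2 (-0.43, adjusted p = 0.0771) and with only the 4 treated libraries (0.0608), within a range of 0.00506 to 0.136. The untreated call was lost without WT untreated replicate 1 (0.125) or 2 (0.0905), WT R848 replicate 1 (0.0512) or KAT8-deficient untreated replicate 1 (0.117) or 2 (0.148), within a range of 0.00208 to 0.148. Irf7 (ENSMUSG00000025498, chromosome 7, 141262706 to 141266481, GRCm38) lies 13.3 Mb from Kat8, and Phrf1, which overlaps 1.19% of its exon bases on the opposite strand, had a log2 genotype difference of -0.04 averaged over both states (edgeR adjusted p = 0.86).

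Irf1 was lower in KAT8-deficient cells under R848, at 26.6 ± 5.18 CPM against 57.1 ± 0.850 CPM in WT cells (SD, n = 2 each), or -1.10 on the log2 scale (SE 0.14, edgeR adjusted p = 0.00141). That call held in each of 16 alternatives, between -1.31 and -0.92. Without R848 the libraries overlapped, at 21.8 ± 3.19 CPM in KAT8-deficient and 23.5 ± 1.15 CPM in WT cells (SD, n = 2 each), with a log2 difference of -0.11 (95% interval -0.43 to 0.22, edgeR adjusted p = 0.73). The average of -0.61 (SE 0.10, edgeR adjusted p = 0.00407) thus combines unequal values.

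Stat3 was higher in each KAT8-deficient library than in the WT libraries of the same state. The log2 difference was 0.29 (SE 0.054, edgeR adjusted p = 0.00897) under R848, 0.23 (SE 0.053, edgeR adjusted p = 0.0511) without it and 0.26 (SE 0.038, edgeR adjusted p = 0.00239) averaged over both states, a level 1.20 times that of WT cells. The average was called in each of 15 alternatives, between 0.25 and 0.27. The R848 call was lost without WT R848 replicate 1 (adjusted p = 0.0703) or 2 (0.0501), in a range from 0.0055 to 0.0703. The untreated value passed in 3 of 16 alternatives, with at least 5 CPM (0.0345), by limma-voom (0.0411) and with robust spread estimation (0.0391), while the highest adjusted p was 0.201. Stromal markers moved the same way: the median log2 genotype difference of the 8 was 0.57 under R848 and 0.47 without it, and Lum, Col3a1, Dcn, Pdgfra, Pdgfrb and Col1a2 were called higher in KAT8-deficient cells in both, from 0.27 (Pdgfra under R848) to 1.5 (Lum under R848). Whether Stat3 messenger RNA came from such cells was not tested.

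Stat2 and Irf9, the partners in ISGF3, did not pass in either genotype comparison. Stat2 had a log2 difference of -0.06 (SE 0.085) under R848 and 0.18 (SE 0.086) without it, and Irf9 had -0.14 (SE 0.11) and 0.12 (SE 0.11). Averaged over both states their 95% intervals were -0.08 to 0.19 for Stat2 and -0.18 to 0.16 for Irf9. Irf2 had -0.02 (SE 0.080) under R848 and -0.17 (SE 0.080) without it, and Irf3 had 0.13 (SE 0.067) and 0.07 (SE 0.068). Irf4 averaged 1.79 ± 0.532 CPM in KAT8-deficient and 2.59 ± 0.412 CPM in WT cells under R848, and 1.91 ± 0.625 and 3.01 ± 0.503 CPM without it (SD, n = 2 each). Its average log2 difference of -0.59 (SE 0.22) had an edgeR adjusted p = 0.0985 and did not pass.

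The tested genes most like each called member across the 8 libraries were found by Pearson correlation of log2 CPM, as a description over libraries that share 4 group means. For Irf1 these were Arrdc4 (r = 0.995), the chemokine Ccl3 (0.989) and Mefv (0.989), which encodes pyrin. For Irf7 they were Cwc15 (0.981), the interferon-induced Epsti1 (0.978) and L3mbtl2 (0.978). For Stat2 they were Insig1 (0.986), which retains the sterol sensor in the endoplasmic reticulum, Rnf213 (0.978) and Klf7 (0.96). For Stat3 they were the metalloprotease Adam8 (0.99), Pdzrn3 (0.989) and the phospholipase Plcg1 (0.988).

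The rest of the pathway was read from 8 lists of known ligands, receptors, signalling proteins, inhibitors and targets, which were not tested as sets. Over all genes, 0.634% were called for R848 in KAT8-deficient cells and 13.6% in WT cells. Between genotypes the shares were 13.6% under R848 and 4.27% without it. Counts called in each genotype do not compare the 2 responses, which the interaction test does. By it, 0 of 16 receptors and kinases, 1 of 18 inhibitors and 0 of 18 endosomal signalling genes passed. Among targets, 1 of 29 passed for ISGF3 and 2 of 15 for STAT3. Socs3 is on both the inhibitor and the STAT3 target list and is counted in each. Over all genes, 0.228% passed the interaction test. Over these lists, each of the 6 calls named for R848 in KAT8-deficient cells was lost without KAT8-deficient R848 replicate 2, and each of the 10 named between untreated genotypes without KAT8-deficient untreated replicate 1. Among 15 cytokine ligands that act through STATs, 6 had enough counts to be tested. Ifna1, Ifna2, Ifna4, Ifnl2 and Ifnl3 were at 0 counts in all 8 libraries, and Ifnb1, the interferon beta gene, reached 0.0543 CPM in 1 untreated WT library and was at 0 in the other 7. Il10, encoding the anti-inflammatory interleukin 10, had 3.58 and 3.02 CPM in R848-treated and 4.46 and 4.01 CPM in untreated KAT8-deficient cells, and 1.28 and 0.919 CPM in R848-treated and 3.54 and 3.20 CPM in untreated WT cells. In WT cells it fell by 1.62 on the log2 scale (SE 0.23, edgeR adjusted p = 0.00252) and was higher in KAT8-deficient cells under R848 by 1.58 (SE 0.23, edgeR adjusted p = 0.00312). Lif at 0.81 and Ebi3 at 0.65 rose in WT cells, though neither was called without WT R848 replicate 2, Lif not without WT untreated replicate 2 and Ebi3 not without WT untreated replicate 1. In KAT8-deficient cells 0 of the 6 passed. Ebi3, a subunit of interleukins 27 and 35, was lower in KAT8-deficient cells by a log2 difference of -1.07 under R848 and -0.91 without it. Il27, the other subunit of interleukin 27, was lower by -2.61 under R848, a call lost without either WT R848 library. Its counts were low, at 0.471 and 0.141 CPM in R848-treated KAT8-deficient cells and 1.87 and 1.94 CPM in R848-treated WT cells. With the filter of at least 5 CPM in 2 libraries, Il10 and Il27 were too low to be tested. For that reason 1 rather than 3 of these ligands, Ebi3, was called there between genotypes under R848.

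Of 16 receptors and Janus kinases, all tested, 0 passed under R848 in KAT8-deficient cells, whereas 4 rose and 2 fell in WT cells. Jak2, the kinase of the interferon gamma receptor, had 73.8 and 91.0 CPM in R848-treated and 63.1 and 68.3 CPM in untreated KAT8-deficient cells, and 140 and 133 CPM in R848-treated and 64.2 and 64.8 CPM in untreated WT cells. It rose by 1.08 (SE 0.098, edgeR adjusted p = 0.000244) in WT cells and was lower in KAT8-deficient cells under R848, at -0.73 (SE 0.096, edgeR adjusted p = 0.00192). Among the genes that passed in WT cells, Ifnar1, a chain of the type I interferon receptor, had 0.46, Osmr 0.45 and the interleukin 6 receptor gene Il6ra -0.73. The other receptor genes called between genotypes under R848 were Ifnar2 (-0.37), Il6ra (0.40) and Osmr (0.33), and 1 rather than 4 passed without WT R848 replicate 1. Osmr was also higher in KAT8-deficient cells without R848 (0.60). Of 18 inhibitors, Socs3, which blocks cytokine receptors that signal through STAT3, rose by 1.58 (SE 0.14) in WT cells and was lower by -0.90 (SE 0.14, edgeR adjusted p = 0.00356) in KAT8-deficient cells under R848. In WT cells Socs6 fell by 2.05, a call kept in 3 of the 8 fits without 1 library, and Ptprc was lower in KAT8-deficient cells under R848 (-0.38), but not without WT R848 replicate 2 or KAT8-deficient R848 replicate 1. Of 18 endosomal receptor and signalling genes, Ikbke, a kinase of IRF3 and IRF7, alone rose in KAT8-deficient cells (0.68, SE 0.086, edgeR adjusted p = 0.0273), while 5 rose in WT cells, including Ikbke (0.91), the inhibitory kinase-like Irak3 (1.57) and the kinase gene Tbk1 (0.34), and Tlr8 fell (-0.61). That list had 0 higher and 5 lower in KAT8-deficient cells under R848, namely Irak3 (-0.86), the RNA receptor gene Tlr3 (-0.62), Ikbke (-0.47), Chuk (-0.27) and Tbk1 (-0.23). Of these 5, 1 passed without WT R848 replicate 1, 2 without WT R848 replicate 2 or KAT8-deficient R848 replicate 1, and 3 without KAT8-deficient R848 replicate 2 or either KAT8-deficient untreated library. By DESeq2 2 passed, and 3 with no filter, with at least 5 CPM or with the replicate block. Tlr9 was called lower without R848 (-0.59), but in none of the 8 fits without 1 library, nor by DESeq2 or limma-voom. For R848 in WT cells 3 rather than 6 passed without WT R848 replicate 2.

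The target genes were read beside these factors. Of 29 ISGF3 targets, 2 rose under R848 in KAT8-deficient cells, Parp14 (0.57) and Cxcl10 (0.96), whereas 15 rose and 1 fell in WT cells, Cxcl10 (2.56), Parp14 (1.06), Ifih1 (0.58) and the RNA sensor gene Ddx58 (0.57) first by adjusted p, with list medians of 0.26 and 0.58. Under R848, 0 were higher and 15 lower in KAT8-deficient than in WT cells (median -0.58), and without it 0 were higher and Oas3 (-0.66) and Oasl2 (-0.57) were lower. Of the 8 fits without 1 library, 4 called Parp14 and 3 called Cxcl10 for R848 in KAT8-deficient cells, and 2 called Oas3 and 2 called Oasl2 between untreated genotypes. Cxcl10, an interferon-inducible chemokine, had 11.8 and 13.6 CPM in R848-treated and 6.88 and 6.21 CPM in untreated KAT8-deficient cells, and 28 and 29.3 CPM in R848-treated and 5.40 and 4.29 CPM in untreated WT cells. Its R848 response differed between genotypes by -1.60 (SE 0.20, edgeR adjusted p = 0.0252). Of the 29, 8 rather than 16 passed for R848 in WT cells without WT R848 replicate 1, and 7 without WT untreated replicate 2. Under R848, 4 rather than 15 passed between genotypes without WT R848 replicate 1, 9 without WT R848 replicate 2 and 8 without KAT8-deficient R848 replicate 2. Parp14 (-0.64), Ifih1 (-0.67), Isg15 (-0.97) and Cxcl10 (-1.17) were called lower in KAT8-deficient cells under R848 in each of those fits.

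Of 18 interferon gamma and IRF1 targets, 17 were tested. Gbp2 (0.85), Gbp5 (1.44) and Casp4 (0.56) were called higher under R848 in KAT8-deficient cells. In WT cells 11 rose and 0 fell, and list medians were 0.25 in KAT8-deficient and 0.77 in WT cells. The interaction test called 0 of the 17, so a difference of their responses between genotypes was not shown. Of the 8 fits without 1 library, 5 called Gbp2 in KAT8-deficient cells, 2 called Gbp5 and 0 called Casp4, and neither Gbp5 nor Casp4 passed by limma-voom, with the replicate block or with only 4 libraries. In WT cells Gbp5 had 2.84, Gbp2 1.83, Casp4 1.33 and Gbp3 1.22. Under R848, 0 were higher and 11 lower in KAT8-deficient than in WT cells (median -0.57). Gbp2, a guanylate-binding protein gene, had 33.9 and 35.2 CPM in R848-treated KAT8-deficient cells and 112 and 90.3 CPM in R848-treated WT cells, or -1.55 on the log2 scale (SE 0.11, edgeR adjusted p = 0.000271). Gbp5 (-2.13), Gbp3 (-1.25) and the immunoproteasome gene Psmb10 (-0.57) were also lower. Without R848 3 were lower in KAT8-deficient cells, Gbp3 (-0.63), Gbp2 (-0.57) and Psmb8 (-0.31), another immunoproteasome gene. Without WT R848 replicate 1, 6 rather than 11 passed for R848 in WT cells and 7 rather than 11 between genotypes under R848, and the first count was 7 without WT untreated replicate 1.

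Of 15 STAT3 targets, 0 passed under R848 in KAT8-deficient cells, whereas 7 rose and Nfil3 fell (-0.57) in WT cells, among them Cebpd (1.18, SE 0.10), Socs3 and Bcl3 (1.01, SE 0.14). Under R848, 0 were higher and 6 lower in KAT8-deficient than in WT cells, Socs3, Cebpd (-0.64), Junb (-0.54) and Mcl1 (-0.27) first by adjusted p, while Stat3 itself was higher there. Without R848, Il1rn (0.34) and Cebpd (0.45) were called higher in KAT8-deficient cells, Il1rn in 2 and Cebpd in 0 of the 8 fits without 1 library, and Cebpd not by DESeq2 or limma-voom. Cebpd had 22.0 and 23.0 CPM in R848-treated and 22.5 and 19.7 CPM in untreated KAT8-deficient cells, and 34.0 and 35.9 CPM in R848-treated and 14.6 and 16.3 CPM in untreated WT cells. Only 2 of the 6 passed under R848 without WT R848 replicate 1 or 2, and 5 rather than 8 passed in the WT response without WT untreated replicate 1 or WT R848 replicate 1 or 2.

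Among the other 10 genes of the IRF and STAT families and IRF2-binding proteins, 9 were tested. In KAT8-deficient cells 0 passed under R848, and in WT cells 0 rose and 3 fell, Irf8 (-0.56, SE 0.072), a myeloid lineage factor, Irf2bpl (-0.52, SE 0.099) and Stat6 (-0.19, SE 0.053), the last in none of the 8 fits without 1 library. Irf2bpl was higher (0.48) and Stat5a lower (-0.25) in KAT8-deficient cells under R848, and Stat5a was likewise called in none of those 8 fits. The Irf2bpl calls were lost without WT R848 replicate 1, and that between genotypes also without either KAT8-deficient R848 library.

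**Figure D4:**
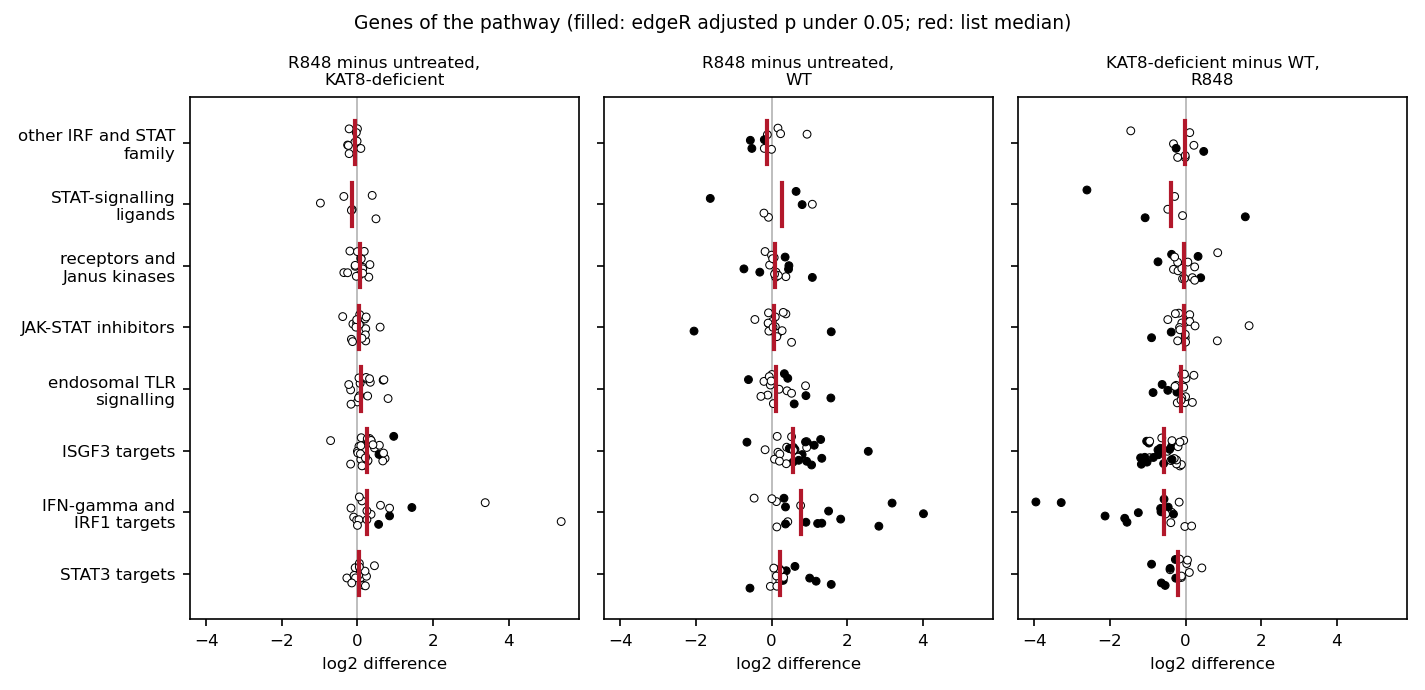
Log2 differences of single genes (points) in the 8 pathway lists for R848 against untreated in KAT8-deficient cells and in WT cells, and for KAT8-deficient against WT cells under R848; filled points passed the edgeR test and red bars are list medians. The ISGF3 targets and the interferon gamma and IRF1 targets have medians of 0.58 and 0.77 for R848 in WT cells, and of -0.58 and -0.57 between genotypes under R848.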

How the data were processed

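Messenger RNA was captured on beads after DNase treatment, with libraries from a Vazyme kit, per the labels' protocols. The values are counts per Ensembl gene as deposited by the authors, in 8 columns matched by name to the 8 samples. Per the submitters' processing notes, StringTie 1.3.0, HISAT2 and edgeR were used with mm10, with no role given; the sources used here give no annotation, counting or strand setting. Exons of Irf1, Irf3, Irf5, Irf7, Irf9 and Stat3 overlap a neighbouring gene by 0.76% to 14.15% of their bases, and how such reads were assigned is unknown. Symbols and positions are from GENCODE M21 (GRCm38, the build of mm10).

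Counts were filtered with filterByExpr, normalised by TMM and fitted with the quasi-likelihood model of edgeR 4.0.16 in R 4.3.3, with 1 mean per group (residual degrees of freedom 4, common coefficient of variation 0.0956). P-values are two-sided and adjusted over 14040 genes. SEs are the absolute log2 difference over the square root of F, so intervals are approximate. With 2 libraries per group, the variance between replicate counts was 7.41 to 12.0 times that of counting error (chi-square per degree of freedom), so replicates are separate libraries. Alternatives were DESeq2 1.42.0 (size factors, Wald test), limma-voom (limma 3.58.1), robust spread, 2 other filters, a replicate block, only the 4 libraries compared, and leaving out each library. Their use on Kat8 and on the lists was chosen after seeing the data. The edgeR fit was tested on simulated data.

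Members and lists were chosen with earlier results of these data known. Named from the lists were up to 4 called genes with the smallest adjusted p per comparison, or all where 5 or fewer were called, in the R848 responses, the genotype comparison of each state and the interaction. Calls of the lists averaged over both states are not reported here. Genes compared by pattern averaged at least 5 CPM. Values of overlapping neighbours, interferon genes at 0 and called markers were chosen after they were seen.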

Additional observations from a re-analysis of the deposited data

Results flagged for a closer look

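The R848 response differed between genotypes, by the interaction test itself, in 3 of the pathway genes named above and in 0 of the 9 members. On the log2 scale, the response of KAT8-deficient cells minus that of WT cells was -1.38 for Socs3 (edgeR adjusted p = 0.0428), -1.60 for Cxcl10 (adjusted p = 0.0252) and -1.09 for Cebpd (adjusted p = 0.0295). With 1 library left out in turn, 1 of 8 fits called Socs3, 3 called Cxcl10 and 1 called Cebpd. With the replicate block neither Socs3 nor Cebpd passed. Their causes were not tested.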

How the results depend on the processing

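Over 54 values (9 members in 6 comparisons) and 839 alternatives of them, 780 kept their direction and their side of the threshold, 19 no longer passed, 7 newly passed and 33 changed sign, 0 of these in a called value. Of the 3 members called for R848 in WT cells, 1 to 3 passed with 1 library left out. The 1 member called between untreated genotypes became 2 with at least 5 CPM in 2 libraries, 2 by limma-voom and 2 with robust spread, and ranged from 0 to 1 with 1 library left out. The 3 called under R848 ranged from 1 to 3 with 1 library left out, and the 0 called in the interaction became 1 with no filter, 1 by DESeq2 and 1 with robust spread, and ranged from 0 to 1. For Irf9 under R848 in KAT8-deficient cells the value was -0.01 with DESeq2 size factors, -0.01 by DESeq2 and 0 with at least 5 CPM, limma-voom, the replicate block and only 4 libraries, and its average genotype difference was 0 with at least 5 CPM. With 1 library left out, the R848 change in KAT8-deficient cells ran from -0.14 to 0.12 for Irf9, -0.68 to 0.11 for Irf5, 0 to 0.05 for Irf3 and -0.44 to 0.29 for Irf4, and that in WT cells from -0.13 to 0.19 for Irf5. The genotype difference ran from -0.24 to 0.56 for Irf5 and -0.26 to 0.04 for Irf1 without R848, from -0.07 to 0.04 for Irf2 and -0.14 to 0.03 for Stat2 under R848, and, averaged, from -0.20 to 0.20 for Irf5 and -0.08 to 0.05 for Irf9. The interaction ran from -0.21 to 0.50 for Irf4, -0.71 to 0.09 for Irf5 and -0.11 to 0.33 for Irf7. The cause of these changes was not tested. Over all genes, the 89 calls for R848 in KAT8-deficient cells became 235 by DESeq2, 274 with no filter, 158 with robust spread, 22 with only 4 libraries and 2 to 186 with 1 library left out. The 600 untreated genotype calls became 384 with only 4 libraries and 66 to 606, and the 32 interaction calls became 227 by DESeq2, 245 with no filter, 148 with robust spread and 6 to 208. With 1 library left out, the 1916 WT response calls became 858 to 1826, the 1911 under R848 784 to 1894, and the 2606 averaged over both states 1541 to 2247. Deviations of same-numbered replicates from their group means correlated between -0.07 and 0.049, so a large effect shared by same-numbered replicates was not seen. With 2 libraries per group this cannot decide whether same-numbered libraries were prepared together. The replicate block left the member counts at 0, 3, 1, 3, 3 and 0 in the 6 comparisons and all-gene counts within 25 to 2574. Of 27 list genes named for R848 in WT cells, 6 were lost without at least 1 library, as were 14 of 27 between genotypes under R848, 6 of 6 for R848 in KAT8-deficient cells and 10 of 10 between untreated genotypes. Depth limits Irf4, with 28 to 62 counts per library.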

Other observations

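Within 15 Mb of Kat8 on chromosome 7, 262 genes besides Kat8 were tested, Irf7 among them. Of these, 16 (6.11%) differed between genotypes without R848, next to 4.27% of all genes, and 32 (12.2%) under R848, next to 13.6% of all genes. Averaged over both states the shares were 17.6% near Kat8 and 18.6% over all genes.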
